A study of Mus musculus with 53 samples.

Results

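Mouse embryonic stem (ES) cells lacking Ezh2 were compared with ES cells lacking Eed after 6 days without leukaemia inhibitory factor (LIF), the cytokine that holds mouse ES cells in the undifferentiated state. The comparison comprised 7 of the 53 expression arrays of the series, chosen by their labels: 5 arrays of Ezh2-null cells and 2 arrays of Eed-null cells. Both mutants were homozygous knockouts, and withdrawal of LIF was the only treatment named. The same 2 mutants were also profiled after 2 days without LIF, with 4 Ezh2-null and 2 Eed-null arrays, and undifferentiated at day 0, with 6 and 5 arrays, and wild-type cells were profiled at day 6 on 5 arrays, replicates 1 to 3 of the J1 line and replicates 4 and 5 of the CJ7 line. Arrays within a group are labelled as separate biological replicates, and the labels speak of 1 mutant cell line per gene, without giving the clone, the parental line or the strain, so genotype and line cannot be told apart. Wild-type and mutant cells were grown on fibroblast feeders, which were depleted by plating before use, and the arrays are of bulk RNA, in which fewer cells of a type and less RNA per cell cannot be told apart.

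Ezh2 and Eed are core subunits of PRC2 (Polycomb repressive complex 2), the enzyme that methylates lysine 27 of histone H3 and keeps developmental genes silent, typically genes whose promoters lie in CpG islands. Ezh2 carries the methyltransferase activity, for which its paralogue Ezh1 can partly stand in, whereas Eed is the scaffold that the complex needs with either enzyme. The comparison at day 6 therefore sets cells that keep Eed and Ezh1 beside cells without Eed, at a stage when wild-type cells have left the pluripotent state.

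Signals are linear array units as deposited, differences are Ezh2-null minus Eed-null on the log2(signal + 32) scale with their standard error (SE), and a gene was called when its adjusted p was under 0.05 and it differed by at least 2-fold. The targeted gene Ezh2 read 152, 152, 52.6, 57.0 and 82.2 on Ezh2-null replicates 1 to 5, 654 and 602 on Eed-null replicates 1 and 2, and between 704 and 851 in wild type. It was 5.32-fold lower in Ezh2-null cells (difference -2.41, SE 0.19, adjusted p = 2.72e-12), and the Ezh2-null arrays lay below every Eed-null and wild-type array. The probe set for Eed gives no such check, because Eed-null arrays read 1644 and 1341 on it, within the 740 to 1734 of the Ezh2-null arrays, and where it lies relative to the mutation is not stated in the labels. The paralogue Ezh1 lay between 91.4 and 121 in Ezh2-null and at 123 and 117 in Eed-null cells, and the third core subunit, Suz12, between 420 and 1369 and at 1123 and 1140, neither of them called.

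The 5 Ezh2-null arrays did not form one tight group. Judged by how probe sets of the same gene compare with each other, the day 2 and day 6 arrays fall into 2 sets, which no label names, whereas the day 0 arrays did not split in this way and were given no set. Ezh2-null replicates 1 and 2 of day 6 belong to the first set with 2 wild-type arrays of the J1 line, and Ezh2-null replicates 3 to 5 and both Eed-null arrays to the second, with the other J1 array and both CJ7 arrays, so wild-type line and set partly coincide. Pairwise correlations of log2 signals across genes, given as a description, ranged from 0.897 to 0.991 among the Ezh2-null arrays and came to 0.991 for the Eed-null pair. They were 0.897 to 0.940 between the array sets and 0.977 to 0.991 within them. Replicate 3 was low in pluripotency genes. The 29 tested genes of core and naive pluripotency summed to a signal of 12663 on it, against 27952 to 33325 on the other Ezh2-null arrays and 30217 and 31127 on the Eed-null arrays. Eif2s3y, a translation factor gene on the Y chromosome, read 556, 569, 251, 14.8 and 12.9 on Ezh2-null replicates 1 to 5 and 330 and 302 in Eed-null cells. The low values on replicates 4 and 5 were shared by Uty, a Y-linked histone demethylase (139, 134, 63.0, 5.4 and 11.3, against 71.3 and 79.0), and by day 2 Ezh2-null replicates 3 and 4. Results are therefore given with all 5 Ezh2-null arrays and, where it matters, with replicates 3 to 5 alone, which share the array set of the Eed-null cells, or with replicates 4 and 5 alone.

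**Figure D1:**
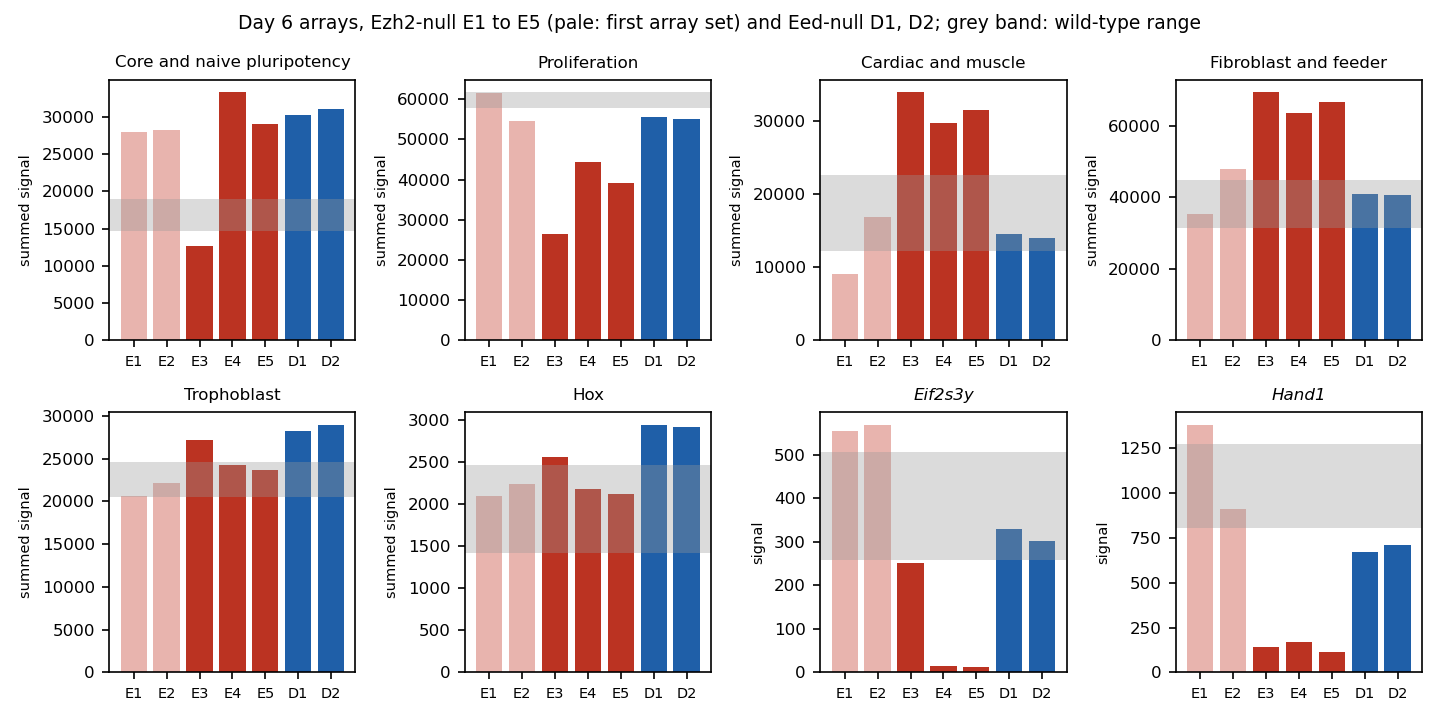
Summed signal of 6 gene lists and signal of Eif2s3y and Hand1 on each day 6 array (vertical axes, linear array units); E1 to E5 are Ezh2-null replicates (pale for the first array set), D1 and D2 Eed-null replicates, and the grey band the range of the 5 wild-type arrays. The pluripotency sum falls to 12663 on E3, and the muscle sum is 29661 to 33870 on E3 to E5 against 14496 and 13906 on D1 and D2.

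At day 6, 98 of 13796 tested genes were called (0.710%), 55 of them higher in Ezh2-null cells (0.399%) and 43 lower (0.312%), and 2464 genes had an unadjusted p under 0.05. The 2 groups of arrays did not overlap for 95 of the 98, against 20.3% of all genes tested. With Ezh2-null replicates 3 to 5 alone, 229 genes were called (1.66%), 84 higher (0.609%) and 145 lower (1.05%). Of the 98 genes, 66 were called both ways, which is 67.3% of the first list and 28.8% of the second, and all 55 and all 43 kept their sign. With replicates 4 and 5 alone, 178 genes were called (1.29%), 76 higher (0.551%) and 102 lower (0.739%), 63 of the 98 among them. Dropping an array of the Eed-null pair reduced the calls to 67 without replicate 1 and 60 without replicate 2, so a lone Eed-null array, assumed to vary like the other groups, kept 56 and 43 of the 98. Among the genes described below, Actc1, Cdkn1c, Cldn7, Col3a1, Dnajb4, Dppa3, Efemp1, Epcam, Foxa2, Gt(ROSA)26Sor, Hey2, Krt7, Loxl1, Mt1, Peg10, Plk1 and Sfmbt2 lost their call without either Eed-null array. Ctse and Fat4 lost it without replicate 1, and Apoe, Cdh2, Gas1, H2-K1, Trub1 and Twist1 without replicate 2. For Actg2, Cebpa, Fabp3, Hspa1b, Pcdh18, Robo1, Sema3c and Vegfc the calls without single arrays are not given here.

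**Figure D2:**
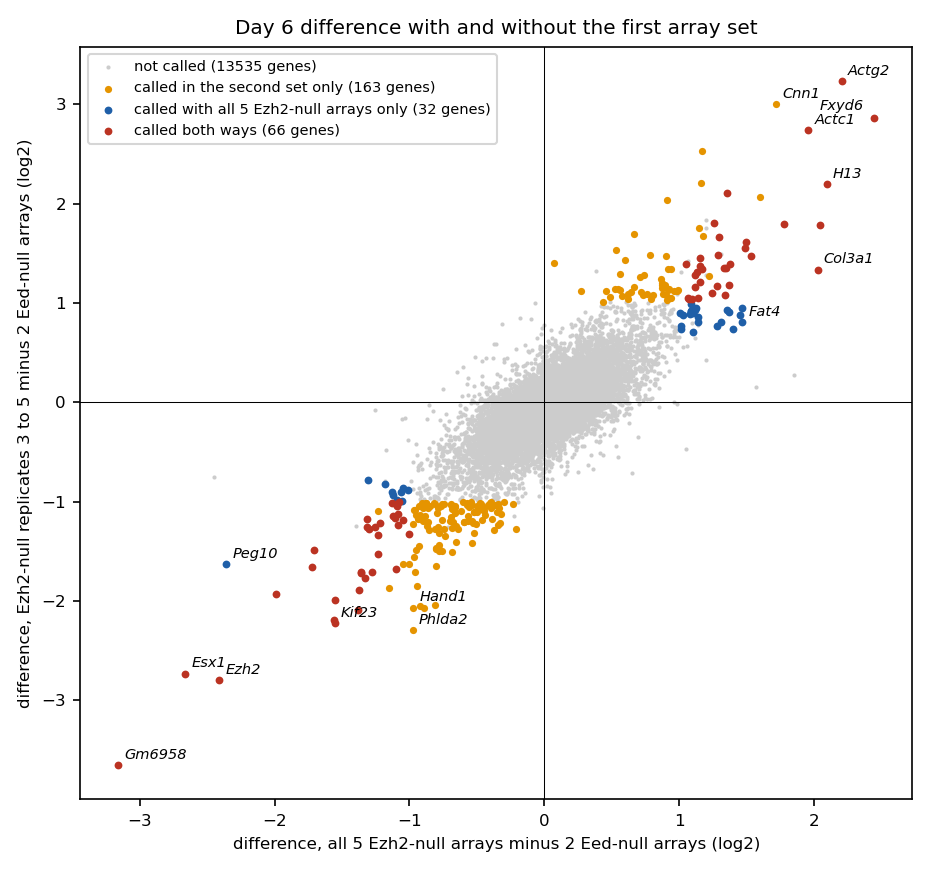
Ezh2-null minus Eed-null difference at day 6 (log2) for 13796 genes with all 5 Ezh2-null arrays (horizontal) and with replicates 3 to 5 only (vertical). Colours mark the 66 genes called both ways, the 32 called only with all 5 arrays and the 163 called only with replicates 3 to 5; the labelled genes have the same sign on both axes.

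The largest called increases in Ezh2-null cells were those of Fxyd6, Actg2, H13, Smim10l1, Col3a1 and Actc1. Genes whose mutant arrays did not overlap are taken first, and the actin genes Actg2 and Actc1 are described with the contractile genes. Fxyd6, a small modulator of the sodium pump, read 674, 824, 1566, 1523 and 1615 in Ezh2-null and 212 and 166 in Eed-null cells. It was 5.45-fold higher (2.45, SE 0.27, adjusted p = 1.25e-08), every Ezh2-null array lay far above both Eed-null arrays, and wild type lay between 843 and 1404. H13, which encodes signal peptide peptidase, read 1952, 1971, 3007, 2050 and 2128 against 536 and 446 and was 4.26-fold higher (2.09, SE 0.26, adjusted p = 4.4e-07). Its Ezh2-null arrays also lay above every wild-type array (1052 to 1354), while its 5 dimmer probe sets differed by -0.30 to 0.45. Smim10l1, a gene of unsettled function, read 623, 639, 408, 384 and 371 against 93.4 and 86.8 (4.13-fold, 2.04, SE 0.22, adjusted p = 8.34e-09), with wild type at 335 to 486. Its dimmer probe sets differed by only 0.293, -0.015 and 0.545. For Fxyd6 and Smim10l1 the Eed-null cells, not the Ezh2-null cells, were the group away from wild type.

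Several further increases, of mixed kind, followed. Cdh2, the N-cadherin gained when epiblast cells become mesenchymal or neural, read 790, 1055, 1014, 907 and 1207 in Ezh2-null and 384 and 285 in Eed-null cells, 2.80-fold higher (1.49, SE 0.32, adjusted p = 0.00272). The Ezh2-null values overlapped the wild-type range of 853 to 1410, and both Eed-null arrays were below it. Efemp1, an extracellular matrix glycoprotein, read 99.4, 203, 154, 115 and 180 against 19.7 and 20.3 (3.43-fold, 1.78, SE 0.37, adjusted p = 0.002). Col3a1, a fibrillar collagen chain, read 3034, 1934, 915, 560 and 694 against 273 and 251 (4.07-fold, 2.03, SE 0.44, adjusted p = 0.00328). The Col3a1 levels were highest on the first array set, and its difference was 1.33 with replicates 3 to 5 (adjusted p = 0.0263) and 1.16 with replicates 4 and 5, where the call was lost (adjusted p = 0.132). Plat, the tissue plasminogen activator, was 2.59-fold higher (472 to 743 against 207 and 194, adjusted p = 1.94e-05). Zfp975, a zinc finger gene of a family whose near-identical copies can share probes, was 2.89-fold higher (452 to 584 against 149 and 157, adjusted p = 3.76e-08), and Dnajb4, a heat shock co-chaperone, 2.83-fold higher (376 to 591 against 152 and 158, adjusted p = 0.00245).

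A further 5 of the 15 largest increases lost their call with replicates 3 to 5 alone. Fat4, an atypical cadherin of planar polarity, read 320 and 266 on Ezh2-null replicates 1 and 2 and 71.7, 68.9 and 71.5 on replicates 3 to 5, against 20.2 and 34.3 in Eed-null cells. Its difference fell from 1.47 (adjusted p = 0.00137) to 0.80, under 2-fold, when replicates 3 to 5 stood alone. Cdkn1c, the imprinted cell cycle inhibitor p57, read 3611 and 2311 on the first set and 1235, 987 and 932 on the second, against 543 and 567 (1.45, SE 0.36, adjusted p = 0.0124), and was not called with replicates 3 to 5 (0.87, adjusted p = 0.0578). Hey2, a Notch target repressor, went from 1.40 (adjusted p = 0.00254) to 0.74, Trub1, a pseudouridine synthase, from 1.47 (adjusted p = 0.00376) to 0.94, and Gt(ROSA)26Sor, the noncoding transcript of the Rosa26 locus, from 1.37 (adjusted p = 0.0269) to 0.91 (adjusted p = 0.103). Trub1 was called with replicates 4 and 5 alone, and the other genes were not. For all 5 genes the Ezh2-null arrays of both sets lay above both Eed-null arrays, which their choice among non-overlapping genes required and which is no further evidence.

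**Figure D3:**
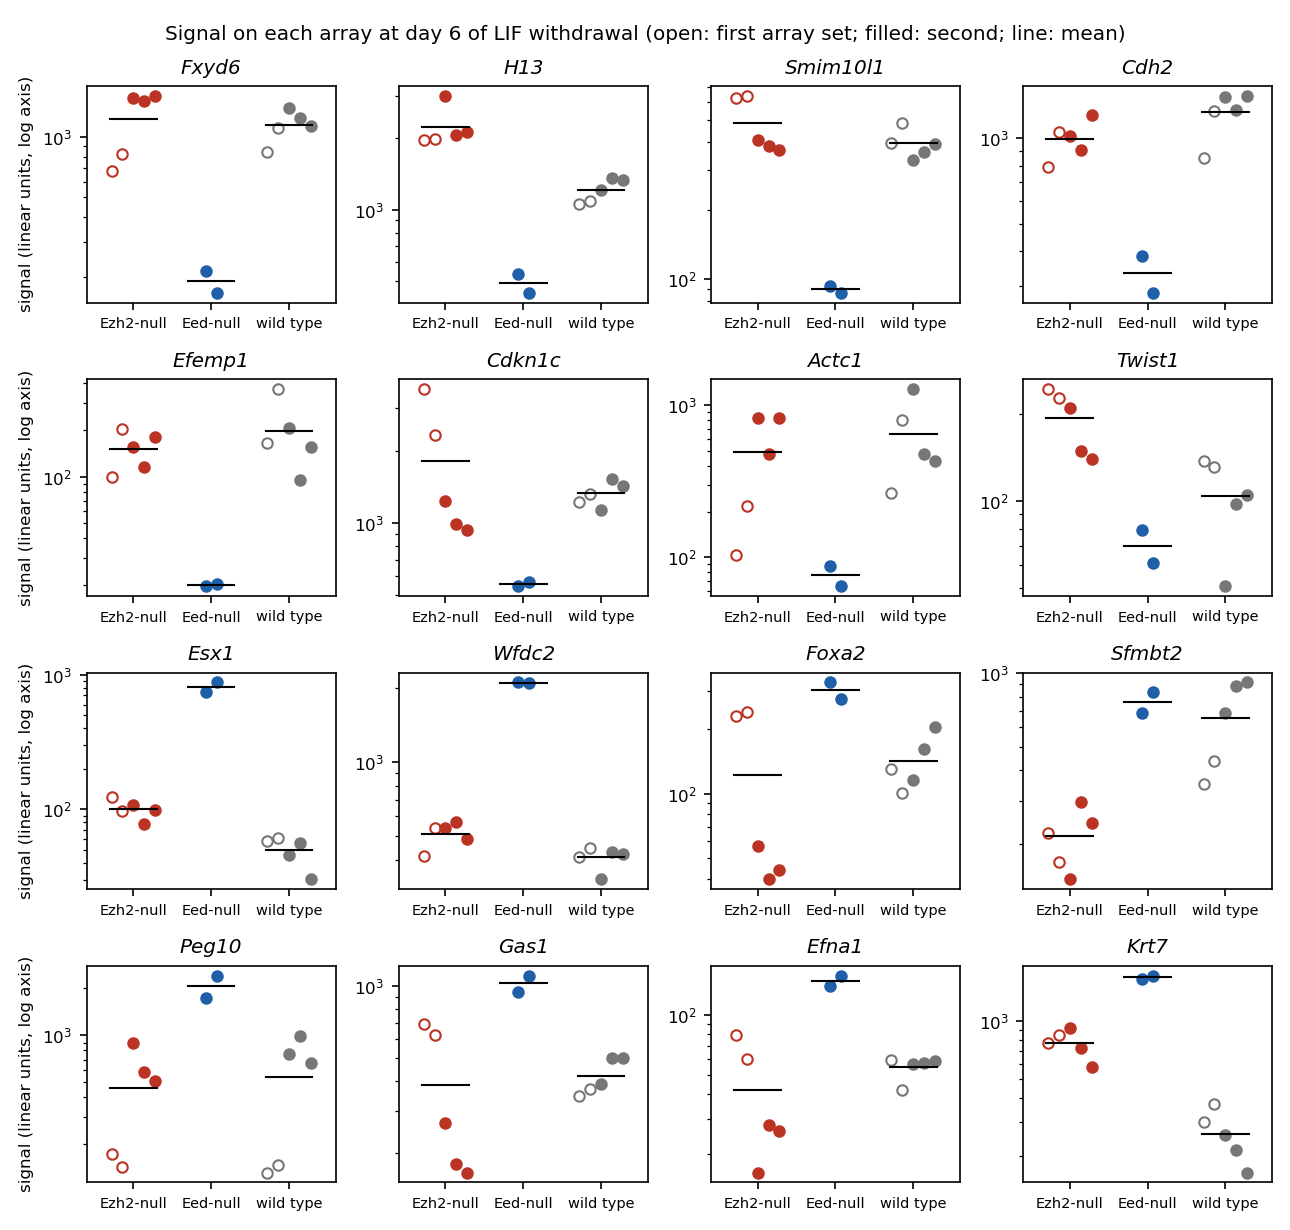
Signal of 16 genes on each day 6 array (vertical axes, linear array units on a log scale) in Ezh2-null, Eed-null and wild-type cells, open circles for the first array set, filled circles for the second and lines for group means. The upper 8 genes are higher and the lower 8 lower on every Ezh2-null array than on both Eed-null arrays; Cdkn1c, Foxa2 and Peg10 also differ between the array sets.

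Genes lower in Ezh2-null cells included Esx1 and the imprinted genes Peg10 and Sfmbt2, all known from the trophoblast or the placenta. Esx1, an X-linked homeobox factor of the trophoblast and the placenta, read 124, 96.8, 108, 77.4 and 99.2 in Ezh2-null and 738 and 876 in Eed-null cells. It was 6.33-fold lower (-2.66, SE 0.17, adjusted p = 5.2e-15), and the Ezh2-null arrays varied little among themselves. Wild type read 30.3 to 61.4, below every array of both mutants, and the Eed-null level was the one farther from wild type. Peg10, a retrotransposon-derived imprinted gene needed for the placenta, read 174, 143, 893, 578 and 508 against 1738 and 2419 (5.13-fold lower, -2.36, SE 0.61, adjusted p = 0.0162). Both array sets of Ezh2-null cells lay below the Eed-null cells, as the choice of non-overlapping genes required, and the call was lost with replicates 3 to 5 (-1.63, adjusted p = 0.0604). Wild-type arrays split between the sets in the same way as the Ezh2-null arrays, with 132 and 147 on the first set and 667 to 994 on the second. Sfmbt2, an imprinted Polycomb-related gene of the trophoblast, read 221, 167, 143, 297 and 244 against 688 and 838 (3.30-fold lower, -1.72, SE 0.45, adjusted p = 0.0191). Wild-type arrays read 350 to 918 for Sfmbt2, and its call was lost with replicates 4 and 5 (-1.39, adjusted p = 0.115).

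The remaining decreases were mixed in kind. Gm6958, a predicted gene, read 75.8, 50.7, 4.8, 12.8 and 7.8 against 536 and 418 (8.93-fold lower, -3.16, SE 0.33, adjusted p = 8.02e-09), with wild type at 41.2 to 70.2. Wfdc2, a secreted protease inhibitor of epithelia, read 415, 536, 538, 569 and 483 against 2102 and 2092 (3.96-fold lower, -1.99, SE 0.21, adjusted p = 9.48e-09). Wild type read 333 to 448, a range that held Ezh2-null replicate 1 and lay below the other Ezh2-null arrays. The zinc finger gene Zfp934, again of a family with near-identical copies, was 3.27-fold lower (494 to 847 against 2259 and 2121, adjusted p = 9.48e-09). Esx1, Gm6958, Wfdc2 and Zfp934 were called under each of the 22 alternative settings tried for them. Apoe, the lipid carrier, read 983, 807, 414, 472 and 330 against 1612 and 1761 (2.93-fold lower, -1.55, SE 0.30, adjusted p = 0.00118). Gas1, a membrane protein that binds hedgehog ligands, read 689, 622, 266, 179 and 165 against 944 and 1106 (2.95-fold lower, -1.56, SE 0.30, adjusted p = 0.000865). Kif23, a kinesin of the cytokinetic midbody, was 2.93-fold lower (82.8 to 685 against 849 and 847, adjusted p = 0.000664), Efna1, an ephrin ligand, 2.57-fold lower (16.1 to 79.5 against 139 and 158, adjusted p = 3.51e-06), and Erdr1 2.57-fold lower (966 to 2043 against 3688 and 3298, adjusted p = 0.000208). Mt1, a metallothionein that binds zinc, was 2.51-fold lower (740 to 2480 against 3704 and 3449, adjusted p = 0.00773). Apoe, Gas1, Kif23, Efna1 and Mt1 read higher on the 2 first-set Ezh2-null arrays than on replicates 3 to 5, and all of them were called with replicates 3 to 5 as well.

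Of the 55 genes higher in Ezh2-null cells, the wild-type mean at day 6 lay between the 2 mutants for 37, above both for 10 and below both for 8, and it was nearer to the Ezh2-null mean for 27. Of the 43 lower genes it lay between for 19, below both for 21 and above both for 3, and it was nearer to the Ezh2-null mean for 35. These counts place the wild-type arrays without a test.

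Lineage lists showed few called members, and the trophoblast list held 3 of them, all lower in Ezh2-null cells (3 of 20 tested, against 0.312% called lower over all genes). Without either Eed-null array Esx1 alone of the 3 was called. Over all 30 lists 20 genes were called, 8 and 4 without Eed-null replicate 1 or 2 and 37 without Ezh2-null replicate 1. Of 20 tested trophoblast genes, Esx1, Peg10 and Krt7 were called lower and none higher, and the list's median difference was -0.26 against 0.0003 over all 13796 genes. Krt7, a keratin of simple epithelia, read 767, 848, 912, 720 and 581 against 1634 and 1708 (2.16-fold lower, -1.11, SE 0.27, adjusted p = 0.0104), and both mutants lay above wild type (165 to 372). With replicates 3 to 5 the list had 5 lower calls and a median of -0.38, the added members being Tfap2c, Ascl2 and Hand1, while Peg10 dropped out. Over all genes 1.05% were called lower with replicates 3 to 5. Hand1, a basic helix-loop-helix factor of trophoblast giant cells and of extraembryonic and lateral mesoderm, read 1383 and 914 on Ezh2-null replicates 1 and 2 and 144, 169 and 113 on replicates 3 to 5, against 672 and 712 in Eed-null cells. The first-set arrays of Ezh2-null cells lay above the Eed-null arrays and the second-set arrays below them (-0.97, adjusted p = 0.24 with all 5 arrays, -2.07, adjusted p = 4.3e-08 with replicates 3 to 5), whereas wild type read 806 to 1274 on both sets. Ascl2, an imprinted trophoblast factor, read 93.1, 56.0, 42.0, 24.1 and 39.8 against 124 and 108 (-0.88, adjusted p = 0.00054, under 2-fold).

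Of 44 tested imprinted genes, Cdkn1c was called higher and Peg10 and Sfmbt2 lower, with a median of -0.13, and with replicates 3 to 5 the count was 4 lower and none higher. Over all genes 0.710% were called with all 5 arrays and 1.66% with replicates 3 to 5. Phlda2, an imprinted brake on placental growth that was picked after its values were seen, had the same split as Hand1: 2223 and 1004 on the first set, 111, 143 and 121 on the second, and 651 and 828 in Eed-null cells. Dlk1, an imprinted Notch ligand relative picked in the same way, read 3437, 2187, 400.0, 251 and 255 against 1268 and 1366. With all 5 arrays neither was called (adjusted p = 0.336 and 0.436), and with replicates 3 to 5 both were lower (-2.29 and -2.04, adjusted p = 5.68e-07 and 0.000131).

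Of 30 tested endoderm genes 2 were called, both lower in Ezh2-null cells (0.312% called lower over all genes), and the median was -0.15. The count was 1 without Eed-null replicate 1 or Ezh2-null replicate 5 and 0 without Eed-null replicate 2. The summed signal of the list was 24751 and 27708 on Ezh2-null replicates 1 and 2, below the 33445 and 33088 of the Eed-null arrays, and 39108, 34024 and 35341 on replicates 3 to 5, above them. Foxa2, the forkhead factor of definitive and visceral endoderm, read 229, 240, 56.8, 39.9 and 43.9 in Ezh2-null and 329 and 277 in Eed-null cells (2.61-fold lower, -1.38, SE 0.36, adjusted p = 0.0184), and replicates 3 to 5 lay below every wild-type array (100 to 204). With replicates 3 to 5 the difference was -2.09 (adjusted p = 1.33e-06). The other called member was Apoe, which is also a plasma lipoprotein of the visceral endoderm and liver.

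Contractile genes had more higher calls once the first array set was left out. Of 24 tested cardiac and muscle genes only Actc1 was called with all 5 arrays, and Actc1, Acta1, Myl9 and Cnn1 with replicates 3 to 5, all higher. Over all genes the share called higher was 0.399% with all 5 arrays and 0.609% with replicates 3 to 5. Actc1, the cardiac alpha-actin, read 104, 218, 826, 479 and 822 against 87.8 and 64.9 (3.88-fold higher, 1.96, SE 0.49, adjusted p = 0.0124), and wild type read 264 to 1271. Cnn1, the smooth muscle calponin, read 38.3, 202, 1300, 974 and 1198 against 156 and 84.1 (1.72, adjusted p = 0.104 with all 5 arrays, and 3.00, adjusted p = 4.61e-06 with replicates 3 to 5). Actg2, a smooth muscle actin outside the list and picked after its values were seen, read 97.4, 309, 1320, 930.1 and 1440 against 111 and 90.2 and was called both ways (2.21 and 3.23, adjusted p = 0.00193 and 2.55e-11). Replicate 1 lay below both Eed-null arrays for Cnn1 and between them for Actg2, and for both genes replicates 3 to 5 were far above the Eed-null arrays. The summed signal of the list was 9056, 16794, 33870, 29661 and 31456 on Ezh2-null replicates 1 to 5 and 14496 and 13906 on the Eed-null arrays, and its median difference was only 0.15.

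The summed signal of fibroblast and feeder genes was also high on replicates 3 to 5, but few members were called. Of 34 tested members Col3a1 and Loxl1, an enzyme that cross-links elastin and collagen, were called higher (0.399% over all genes), and the median was 0.29. The count was 3 with replicates 3 to 5 and 0 with replicates 4 and 5 or without either Eed-null array. At day 0 Col3a1 was called lower in Ezh2-null cells, and at day 6 it was highest on replicates 1 and 2, unlike the sum. The list summed to 35220 and 48013 on Ezh2-null replicates 1 and 2, 63474 to 69358 on replicates 3 to 5 and 40612 to 40977 in Eed-null cells, against 116169 to 137831 in embryonic fibroblasts. The part of fibroblast-like cells in the matrix gene differences was not tested. Actc1 read 25.9 to 29.0 and Cnn1 14.7 and upwards, with a mean of 16.9, in the 2 arrays of embryonic fibroblasts of the series, below every one of their Ezh2-null and Eed-null values. Actg2, in contrast, read 753 to 857 in fibroblasts, within the Ezh2-null range and far above the Eed-null arrays. Cdh2 read 453 to 480 in fibroblasts, below every Ezh2-null array, whereas Col3a1 read 6777 to 7764 and Efemp1 3298 to 4385, far above them.

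Pluripotency genes were low on 1 Ezh2-null array and not on the others. Nanog read 1461, 1412, 223, 1537 and 1210 in Ezh2-null and 1334 and 1464 in Eed-null cells, and Sox2 1683, 1777, 249, 1689 and 1524 against 1446 and 1454. Outside replicate 3 both mutants lay above wild type at day 6, where Nanog read 316 to 523 and Sox2 254 to 761. Pou5f1, which encodes Oct4, read 1050, 1328, 481, 2303 and 1869 against 1964 and 1847, and none of the 3 factors was called (adjusted p = 0.41, 0.68 and 0.21 for Nanog, Sox2 and Pou5f1). Of 29 tested core and naive genes 1 was called lower, Dppa3, a maternal factor that protects the methylation of imprinted loci. It read 272, 223, 53.8, 108 and 94.4 against 392 and 394 (2.59-fold lower, -1.38, SE 0.34, adjusted p = 0.0123). The list's median was -0.32 with all 5 arrays, -0.42 with replicates 3 to 5 and 0.09 with replicates 4 and 5, so its sign depended on replicate 3, on which 25 of the 29 genes had their lowest Ezh2-null value. Of 15 tested primed epiblast genes 1 was called, Cdh2, higher.

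Few proliferation genes passed the test. Of 32 tested members only Plk1, the mitotic Polo kinase, was called with all 5 arrays, at the edge of the 2-fold limit (956, 760, 293, 705 and 503 against 1244 and 1224, 2.01-fold lower, adjusted p = 0.00193). That call was lost without Ezh2-null replicate 3 or 5 or either Eed-null array. The list's summed signal was 61482, 54707, 26339, 44394 and 39195 on Ezh2-null replicates 1 to 5 and 55512 and 55115 on the Eed-null arrays, so replicate 1 lay above both. The list's median was -0.43, and it was -0.80 with 10 lower calls with replicates 3 to 5 and -0.47 with 2 lower calls with replicates 4 and 5. Over all genes the share called lower was 0.312% with all 5 arrays, 1.05% with replicates 3 to 5 and 0.739% with replicates 4 and 5. Cdk1, the mitotic cyclin-dependent kinase, read 2287, 2133, 882, 1760 and 1454 against 3212 and 2876 (-0.90, SE 0.18, adjusted p = 0.0014, under 2-fold), every Ezh2-null array being below both Eed-null arrays. Replicate 3 was the lowest Ezh2-null array for 26 of the 32 genes. Among 15 tested cell cycle inhibitors Cdkn1c alone was called higher. Cdkn1a was tested on its brightest probe set, with means of 2792 in Ezh2-null and 1693 in Eed-null cells (0.65, under 2-fold). Its other probe set, which was not tested, had means of 2219 and 511 (2.02), so the level of Cdkn1a depended on the probe set. Cdkn2a, whose products are p16 and p19Arf and which is a classical PRC2 target, read 446, 674, 401, 306 and 336 against 187 and 210 and against 23.5 to 69.2 in wild type. Both mutants thus exceeded wild type for Cdkn2a, and the difference between them was 0.96 (SE 0.26, adjusted p = 0.02), just under 2-fold. Its neighbour Cdkn2b, encoding p15, read 750, 1649, 2280, 1947 and 2301 against 944 and 859 (0.86, adjusted p = 0.108, and 1.24, adjusted p = 0.00394 with replicates 3 to 5).

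**Figure D4:**
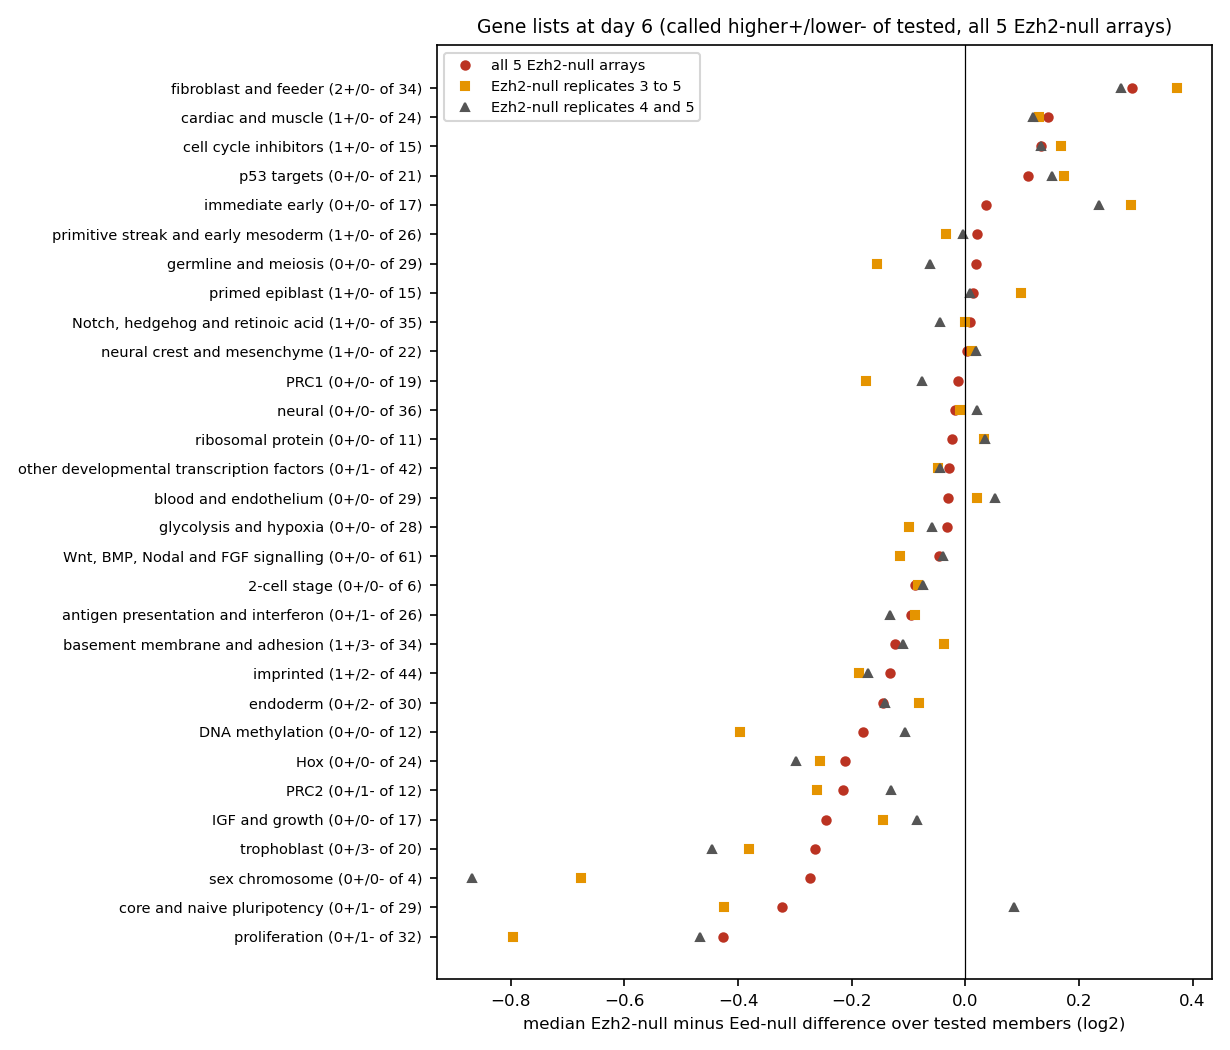
Median Ezh2-null minus Eed-null difference (log2, horizontal) over the tested members of each of 30 gene lists with all 5 Ezh2-null arrays, with replicates 3 to 5 and with replicates 4 and 5; the vertical line is the median over all 13796 genes, and counts in brackets are members called higher and lower with all 5 arrays. Medians run from -0.43 for proliferation to 0.29 for fibroblast and feeder genes, and the pluripotency median changes sign with replicates 4 and 5 alone.

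The Hox clusters, the best known targets of Polycomb repression, had no called member among 24 tested, and their median difference was -0.21. Hoxd13, the most 5′ gene of its cluster, read 147, 148, 99.5, 98.9 and 83.1 in Ezh2-null and 207 and 206 in Eed-null cells (-0.72, SE 0.15, adjusted p = 0.0019), and Hoxa10 read 79.2 to 96.2 against 165 and 154 (-0.67, adjusted p = 0.002). For Hoxd13 and Hoxa10 every array of both mutants except that of Hoxd13 on replicate 5 lay above every wild-type array (48.7 to 84.6 and 36.7 to 74.5), and Eed-null cells were the higher of the mutants. Hoxd9 read 171, 218, 441, 291 and 330 against 542 and 525 (-0.87, adjusted p = 0.011), with wild type at 118 to 213. Among 42 tested developmental transcription factors outside the Hox clusters 1 was called, the homeobox gene Barx1 of stomach and facial mesenchyme, lower in Ezh2-null cells. Barx1 read 75.5, 68.2, 69.7, 79.1 and 83.4 against 239 and 225 (2.47-fold lower, -1.30, SE 0.10, adjusted p = 1.33e-12). The Ezh2-null arrays lay near wild type (52.1 to 70.9), and the Eed-null arrays more than 2-fold above both.

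Of 36 tested neural genes and 29 tested genes of blood and endothelium none was called with all 5 arrays. Lhx2, a LIM homeobox factor of forebrain and eye, read 13.1 ± 6.2 (SD, n = 5) against 76.3 and 38.3 (-0.96, SE 0.17, adjusted p = 0.00019), just under 2-fold, and was called with replicates 3 to 5 (-1.08). Of 22 tested genes of neural crest and mesenchyme and 26 of primitive streak and early mesoderm, Twist1, which both lists hold, was the only one called. Twist1, a basic helix-loop-helix factor of mesoderm and neural crest, read 245, 228, 210, 149 and 140 against 79.4 and 60.8 (2.18-fold higher, 1.13, SE 0.20, adjusted p = 0.000208), and stayed just under 2-fold with replicates 3 to 5 (0.95). Of 35 tested genes of Notch, hedgehog and retinoic acid signalling Hey2 alone was called, and of 61 genes of Wnt, BMP, Nodal and FGF signalling none. In that last list Axin2, a Wnt feedback gene, was 0.64 higher (553 to 831 against 410 and 474, adjusted p = 0.014) and Spry1, an FGF feedback inhibitor, was lower, with a difference of -0.64 (268 to 344 against 502 and 517, adjusted p = 0.0033), both under 2-fold. Snai2, a repressor of epithelial genes, and Postn, a matrix protein of mesenchyme, were high on the first array set only: Snai2 read 476 and 397 and then 81.7 to 96.8 against 69.0 and 49.8, and Postn 1589 and 886 and then 39.7 to 64.2 against 27.1 and 41.5.

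Among 34 tested genes of basement membrane and adhesion Cdh2 was called higher and Epcam, Cldn7 and Krt7 lower, with a median of -0.12. Over all genes 0.399% were called higher and 0.312% lower. All 3 lower calls were lost without either Eed-null array, and that of Epcam in 14 of 22 alternative settings. Epcam, an epithelial adhesion molecule of ES cells, read 1151, 1176, 1224, 1841 and 1362 against 2772 and 2654 (2.01-fold lower, -1.01, SE 0.25, adjusted p = 0.012), at the edge of the limit, and was under 2-fold with replicates 3 to 5 (-0.88). The dimmer probe set of Epcam, with means of 530.1 and 623.1, differed by only -0.265. Cldn7, a tight junction protein, read 707, 778, 816, 641 and 636 against 1513 and 1587 (2.13-fold lower, -1.09, SE 0.29, adjusted p = 0.0224). Both genes had no overlap between the mutants, and wild-type Epcam (1032 to 2066) reached from the Ezh2-null range upwards. H2-K1, a class I histocompatibility gene and the 1 called member of 26 in antigen presentation and interferon, read 328 to 460 against 830 and 904 (2.13-fold lower, adjusted p = 0.00107), and was just under 2-fold with replicates 3 to 5 (-0.99). Both mutants lay at or below its wild-type range (891 to 1277), apart from the Eed-null array at 904.

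No member was called with all 5 arrays among 19 tested PRC1 genes, 12 of DNA methylation, 29 of germline and meiosis, 21 p53 targets, 28 of glycolysis and hypoxia, 17 immediate early genes, 17 of insulin-like growth factor signalling, 11 ribosomal protein genes, 6 of the 2-cell stage and 4 of the sex chromosomes. Of 12 PRC2 genes Ezh2 itself was the only one called. Cbx2, a PRC1 subunit that reads the PRC2 mark, was another gene split by array set, with 559 and 495 on Ezh2-null replicates 1 and 2 and 120, 137 and 136 on replicates 3 to 5, against 427 and 426 (-0.78, adjusted p = 0.23, and -1.49, adjusted p = 7.7e-05 with replicates 3 to 5). Pcgf5, a PRC1 ring partner, differed by -0.80 (adjusted p = 0.04) and by -1.12 with replicates 3 to 5 (adjusted p = 0.00012).

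The 5 transcription factors called among the lineage and signalling lists, Esx1, Barx1, Foxa2, Twist1 and Hey2, are shown with the 250 bases before their RefSeq start (build GRCm38.p6, gene strand, 5′ to 3′), because PRC2 is known to act at promoters rich in CG dinucleotides. Capitals mark each CG, which reads the same on both strands. The 5 were chosen after their values were seen, and the window at Foxa2 is the first of 3 listed starts.
Esx1 (chrX:137120327-137120576, minus strand): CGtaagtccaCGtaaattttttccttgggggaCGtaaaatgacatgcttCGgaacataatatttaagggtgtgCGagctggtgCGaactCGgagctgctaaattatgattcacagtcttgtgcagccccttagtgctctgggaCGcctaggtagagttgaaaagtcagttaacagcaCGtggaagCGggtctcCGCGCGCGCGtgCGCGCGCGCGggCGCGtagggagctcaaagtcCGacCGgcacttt
Barx1 (chr13:48662786-48663035, plus strand): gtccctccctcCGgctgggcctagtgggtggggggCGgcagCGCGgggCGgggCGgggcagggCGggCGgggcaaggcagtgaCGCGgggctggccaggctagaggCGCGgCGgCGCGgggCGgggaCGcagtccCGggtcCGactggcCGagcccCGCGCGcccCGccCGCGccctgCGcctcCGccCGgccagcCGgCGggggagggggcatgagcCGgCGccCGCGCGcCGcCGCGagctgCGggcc
Foxa2 (chr2:148046970-148047219, minus strand): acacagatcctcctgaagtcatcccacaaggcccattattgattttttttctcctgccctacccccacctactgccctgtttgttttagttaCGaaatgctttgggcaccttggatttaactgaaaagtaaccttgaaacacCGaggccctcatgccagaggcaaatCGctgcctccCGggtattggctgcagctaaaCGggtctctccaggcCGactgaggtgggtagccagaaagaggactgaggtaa
Twist1 (chr12:33957421-33957670, plus strand): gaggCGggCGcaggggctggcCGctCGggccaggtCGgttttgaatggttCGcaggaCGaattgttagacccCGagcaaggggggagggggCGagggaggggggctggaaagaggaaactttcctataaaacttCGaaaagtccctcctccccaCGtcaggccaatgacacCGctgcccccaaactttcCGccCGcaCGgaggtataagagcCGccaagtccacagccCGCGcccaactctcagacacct
Hey2 (chr10:30842784-30843033, minus strand): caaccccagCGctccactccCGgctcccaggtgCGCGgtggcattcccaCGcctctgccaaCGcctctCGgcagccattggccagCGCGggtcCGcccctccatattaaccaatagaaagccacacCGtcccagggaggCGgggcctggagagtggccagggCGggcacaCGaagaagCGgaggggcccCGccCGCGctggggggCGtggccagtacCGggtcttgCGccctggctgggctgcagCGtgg

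These windows held 24 CG at Esx1, 40 at Barx1, 6 at Foxa2, 18 at Twist1 and 22 at Hey2. Esx1, on the X chromosome, has a run of adjacent CG close to its start, and Foxa2 has the poorest window of the 5. Over the 300 bases from 250 before to 50 after the start, the 44 genes higher in Ezh2-null cells with a listed promoter had a median of 16 CG, the 35 lower genes 20 and all 11028 tested genes with a promoter 20. At least 10 CG were found in 72.7%, 82.9% and 78.7% of them. Of the genes called with replicates 3 to 5, the 68 higher ones with a listed promoter had a median of 14.5 CG and at least 10 in 66.2%, and the 116 lower ones a median of 20 and at least 10 in 87.1%. These shares were not tested, and the counts describe the reference sequence and not the occupancy of the complex.

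The day 2 and day 0 arrays show which differences preceded day 6. At day 2, 90 genes were called (0.652%), 66 higher in Ezh2-null cells (0.478%) and 24 lower (0.174%), and at day 0 293 (2.12%), 101 higher (0.732%) and 192 lower (1.39%). No array is shared between the days. The day 2 count was 57 without Ezh2-null replicate 2, 167 and 187 without replicates 3 and 4, and 52 and 53 without Eed-null replicates 1 and 2. Of the 98 genes called at day 6, 24 were also called at day 2 in the same direction (24.5% of the day 6 calls and 26.7% of the day 2 calls), and none in the opposite one. The sign at day 2 was that at day 6 for 52 of the 55 higher and 36 of the 43 lower genes. At day 0, 20 of the 98 were called in the same direction (20.4% of the day 6 and 6.83% of the day 0 calls) and 1, Col3a1, in the opposite one. The sign was kept by 27 of the 55 higher and 35 of the 43 lower genes. Col3a1 read 47.9 to 111 in Ezh2-null and 53.2 to 793 in Eed-null cells at day 0 (-1.52, adjusted p = 0.000173). Of 34 tested fibroblast and feeder genes 14 were called lower at day 0 and none higher (1.39% lower over all genes), with a median of -0.77. The part of feeder cells in the day 0 differences was not tested. Called on all 3 days in the same direction were Ctse, Ezh2, Fabp3, Fxyd6, Gm6958, Gpank1, H13, Hebp1, Smim10l1, Thg1l and Trub1. Among them the difference of Fxyd6 was 1.78, 1.86 and 2.45 at days 0, 2 and 6, that of H13 1.15, 1.27 and 2.09, and that of Gm6958 -4.20, -3.65 and -3.16. Thg1l, which encodes a tRNA-histidine guanylyltransferase, was 1.97, 1.79 and 1.35 higher.

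The largest called differences at day 2 were chosen for their size on that day, so smaller values at day 6 are no finding. Higher at day 2 were Actc1 (2.83), Trub1 (2.51), Serinc5 (2.41), Kbtbd11 (2.36), Gbp2b (2.12), Efemp1 (1.97), Fxyd6 (1.86) and Thg1l (1.79). Of these, Serinc5, Kbtbd11 and Gbp2b were not called at day 6 (0.72, 0.98 and 1.60, adjusted p = 0.259, 0.059 and 0.0514). Actc1 read 512, 545, 466 and 568 in day 2 Ezh2-null cells and 34.4 and 59.5 in Eed-null cells, so its difference at day 2 did not depend on the array set (adjusted p = 0.000375). Lower at day 2, beside Gm6958 (-3.65) and Ezh2 (-2.50), were Ctse (-2.27), Nod1 (-2.22), Sycp1 (-1.68), Kcns3 (-1.51), Tex15 (-1.42) and Sfrp1 (-1.34). Sycp1, of the synaptonemal complex, and Tex15, a factor of male germ cells, read 255 and 262 and 377 and 425 in Eed-null cells, against 55.1 to 66.0 and 106 to 167 in Ezh2-null cells.

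The change of the difference from day 2 to day 6 was tested directly and was called for 27 genes (0.196%), 10 with a more positive (0.0725%) and 17 with a more negative difference at day 6 (0.123%). Esx1 had the largest change. It read 55.9, 67.3, 62.8 and 25.5 in Ezh2-null and 71.4 and 96.9 in Eed-null cells at day 2, far below the 738 and 876 of Eed-null cells at day 6, and the change of the difference was -2.19 (SE 0.25, adjusted p = 4.48e-07), or -2.08 within the second array set. Gas1 read 96.5 to 134 against 96.6 and 84.7 at day 2 and changed by -1.82 (SE 0.43, adjusted p = 0.0477), a call lost in 15 of 28 alternative settings, among them those without Eed-null replicate 1 or 2 of either day. Rbm47, an RNA-binding protein of endoderm and epithelia, changed by -1.55 (adjusted p = 0.0032), Efna1 by -1.37 (adjusted p = 0.0112), Erbb3, the neuregulin receptor, by -1.27 (adjusted p = 0.0137), Prr5l by -1.32 (adjusted p = 0.0159) and AI661453 by -1.45 (adjusted p = 0.0018). Alox15, a lipoxygenase, was 2.83-fold higher in Ezh2-null cells at day 2 and differed by 0.03 (log2) at day 6, a change of -1.47 (adjusted p = 0.0257), and its change was not called within the second array set (-0.80, adjusted p = 0.19). Prr5l was not called there either (-1.06, adjusted p = 0.052). The changes of Alox15, Erbb3 and Prr5l also lost their call without any 1 of the 4 Eed-null arrays, that of Efna1 without 3 of them and that of Rbm47 without replicate 2 of either day.

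In the other direction, Twist1 read 40.8 to 60.0 in Ezh2-null cells and a mean of 68.7 in Eed-null cells at day 2, a change by day 6 of 1.39 (SE 0.28, adjusted p = 0.0137). At day 6 it read 79.4 and 60.8 in Eed-null cells, near the day 2 values, and 140 to 245 in Ezh2-null cells. D430041D05Rik, an uncharacterised transcript, read 132 to 178 against 177 and 164 at day 2 and 72.7 to 119 against 13.7 and 24.2 at day 6 (change 1.49, SE 0.31, adjusted p = 0.0151). Nod1, a sensor of bacterial peptidoglycan, read 278 and 347 in Eed-null cells at day 2 and 88.4 and 82.0 at day 6, and its difference moved from -2.22 to -0.88 (change 1.35, adjusted p = 6.06e-05). Bmp8a, a BMP ligand, changed by 1.33 (adjusted p = 0.0112), Acyp2, an acylphosphatase, by 1.30 (adjusted p = 0.0159), Ctse, the protease cathepsin E, by 1.19 (adjusted p = 0.0022), Hoxd10 by 1.18 (adjusted p = 0.0237) and Sycp1 by 1.16 (adjusted p = 0.0101). The calls of Acyp2, D430041D05Rik, Hoxd10 and Sycp1 were lost without any 1 of the 4 Eed-null arrays, those of Bmp8a and Twist1 without 3 of them and that of Ctse without day 6 replicate 2. The calls of Esx1, AI661453 and Nod1 held without each single array. Hoxd10 was lower in Ezh2-null cells at day 2 (30.1 to 41.5 against 106 and 92.2, -1.03, adjusted p = 0.000375) and overlapped at day 6 (104 to 170 against 102 and 132). Within the second array set 91 genes were called for the change (0.660%), 19 of the 27 among them. With all arrays but Ezh2-null day 6 replicate 1 the count was 43, and without Eed-null replicate 1 or 2 it was 6 and 10 for the day 2 arrays and 10 and 6 for the day 6 arrays.

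**Figure D5:**
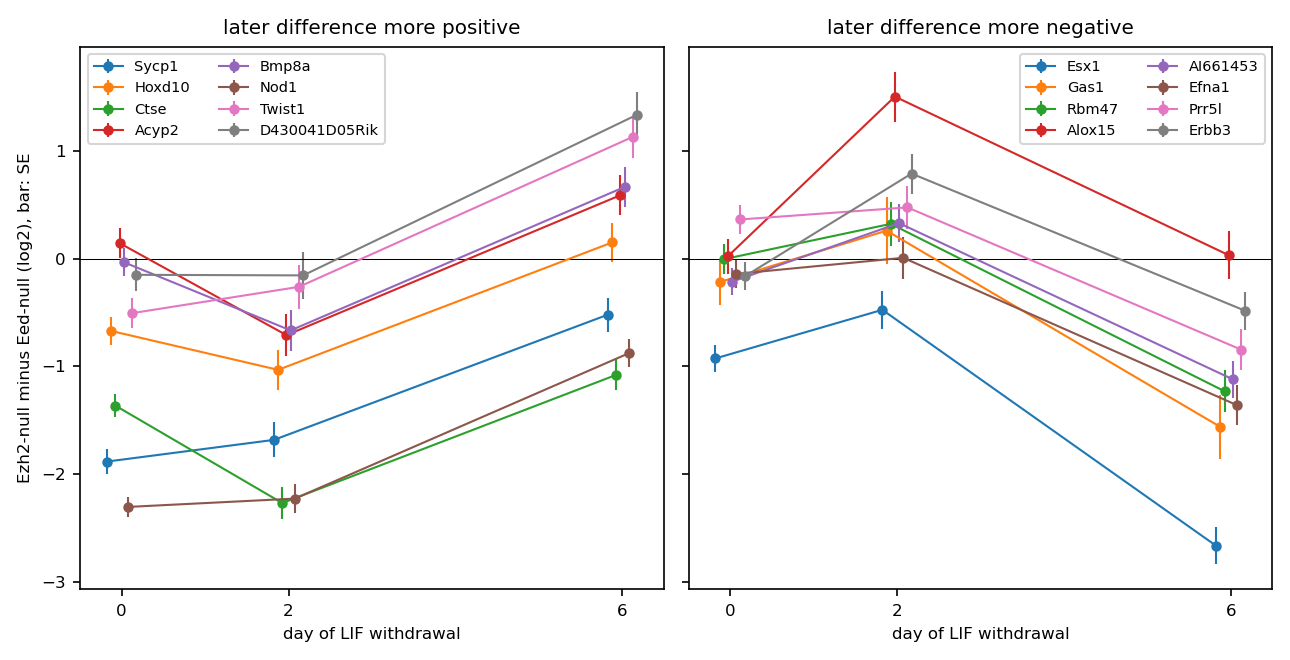
Ezh2-null minus Eed-null difference (log2, vertical, bars are SE) at days 0, 2 and 6 of LIF withdrawal for the 8 genes with the largest called change from day 2 to day 6 in each direction. Esx1 goes from -0.48 at day 2 to -2.66 at day 6, and Twist1 from -0.26 to 1.13.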

How the data were processed

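Total RNA of mouse cells was hybridised to Affymetrix arrays, 1 array per sample, per the labels. The authors deposited linear signal intensities for 45037 probe sets on 53 arrays, and the summarisation and normalisation behind these intensities are not given in the sources used here. Of the probe sets, 34945 carry 1 gene symbol, 932 several and 9160 none, by the platform annotation. Only those with 1 symbol were used. Signals were taken to log2(signal + 32), each gene was represented by its brightest probe set across the series, and a gene was tested when it exceeded the array median on at least 2 arrays (13796 of 18193 genes).

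Means of the 15 groups were fitted over all 53 arrays with limma 3.58.1 in R 4.3.3 (38 residual degrees of freedom, Benjamini-Hochberg adjustment over all tested genes), after a run on simulated data. The number of arrays limits the precision. p-values measure the spread between arrays labelled as biological replicates, pooled over the 15 groups. No term was fitted for array set or line. The spread therefore also holds differences between the 2 array sets and, in wild type, between lines, and the 2 Eed-null arrays contribute little to it. The array sets were found by comparing 4914 pairs of probe sets, each pair measuring 1 gene, whose first principal component holds 35.3% of the variance; the day 6 mutant arrays score -21.96 to -21.63 in the first set and 20.2 to 26.3 in the second. Replicate numbers 1 and 2 are shared by both mutants but do not pair the arrays, whose same-numbered deviations correlate at 0.078 and -0.137. Summed list signals are carried mostly by abundant members.

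The genes, lists and comparisons were chosen with earlier results of these data known. Named are Sox2, Nanog, Pou5f1, Suz12, Ezh1, Eed and Ezh2, the 15 largest called differences in each direction whose arrays do not overlap, members of lists with the smallest p or a call, and the 8 largest called differences in each direction at day 2 and in the change between days. Other genes are said to have been picked after their values were seen. Promoter sequences and gene starts are from RefSeq, build GRCm38.p6.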

Additional observations from a re-analysis of the deposited data

Results flagged for a closer look

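On Ezh2-null replicate 3 at day 6, a single array lay apart from the other 4 of its group in several measures, of which 3 were flagged. The signal of H13 was 3010 there, the summed signal of the core and naive pluripotency list 12663 and that of the primed epiblast list 4166. About 1 group in 20 shows so wide a gap by chance.

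The difference between the mutants itself changed from day 2 to day 6 for 16 of the genes described. The change on the log2 scale was -2.19 for Esx1, -1.82 for Gas1, -1.55 for Rbm47, -1.47 for Alox15, -1.45 for AI661453, -1.37 for Efna1, -1.32 for Prr5l and -1.27 for Erbb3. It was 1.49 for D430041D05Rik, 1.39 for Twist1, 1.35 for Nod1, 1.33 for Bmp8a, 1.30 for Acyp2, 1.19 for Ctse, 1.18 for Hoxd10 and 1.16 for Sycp1.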

How the results depend on the processing

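Counts of called genes moved with several settings, and no named gene that was called changed sign under the settings tried. At day 6 (98 genes with the main settings) they were 229 with Ezh2-null replicates 3 to 5 only, 235 with the second array set only and wild type included, 178 with replicates 4 and 5 only, 25 with only the arrays compared in the fit, 159 and 43 with a pseudocount 4 times lower and higher, 63 when the probe sets of each gene were averaged, 183 with array weights, 588 with no minimum fold and 393 with a minimum of 1.5-fold, and 60 to 144 when single arrays were left out. At day 2 (90) they were 55, 39, 160, 31, 56, 656, 408 and 309 with the second array set only, only the arrays compared, the lower and higher pseudocount, the mean of probe sets, array weights, no minimum fold and 1.5-fold, and 52 to 187 when single arrays were left out. At day 0 (293) they were 540 and 103 with the lower and higher pseudocount, 172 with the mean of probe sets, 5524 and 1666 with no minimum fold and 1.5-fold, and 232 to 358 when single arrays were left out. Centring each array on its median turned the day 0 split of 101 higher and 192 lower into 170 and 121.

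For the change from day 2 to day 6 (27) the counts were 91 with the second array set only, 131 with wild type of that set included, 68 with replicates 4 and 5 only, 49 with the array set as a block, 1 with only the arrays compared, 10 with the higher pseudocount, 16 with a filter at the 75th percentile, 792 with array weights, and 6 to 43 when single arrays were left out. The lists held 20 called genes in all, 54 with replicates 3 to 5, 41 with replicates 4 and 5 and 4 to 37 when single day 6 arrays were left out. With the replicate number as a block and only the arrays compared, 922 genes were called at day 6, 846 at day 2 and 8 for the change; replicates that share a number lie in different array sets, so this block is confounded with the sets. Ezh2-null replicates 1 and 2 lie in an array set without Eed-null arrays, so within-set values exist for the second set only, and 2 Eed-null arrays limit every comparison. The cause of each shift was not tested.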

Other observations

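Outside the genes described above, the 55 genes higher in Ezh2-null cells included ligands and receptors of migrating and vascular cells, picked here after their values were seen. Sema3c, a secreted guidance ligand, read 1065, 1742, 2384, 1378 and 2235 on Ezh2-null replicates 1 to 5 and 694 and 655 in Eed-null cells (1.28, SE 0.31, adjusted p = 0.00973), and both mutants lay above wild type (134 to 509). Robo1, a receptor for Slit guidance ligands, read 458 to 595 against 237 and 216 (1.12, adjusted p = 0.00224), with wild type at 233 to 363. Vegfc, the lymphatic growth factor, read 301, 267, 100.4, 144 and 121 against 45.9 and 50.2 (1.35, adjusted p = 0.00469), and was under 2-fold with replicates 3 to 5 (0.93). Pcdh18, a protocadherin, read 212 to 387 against 92.6 and 93.8 (1.34, adjusted p = 3.51e-06), and wild type read 272 to 410. The dimmer probe sets of Pcdh18 differed by only 0.38 and 0.35, that of Sema3c by 0.58 and those of Robo1 by 0.07 and 0.22. Those of Vegfc differed by 1.19 and 1.17.

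Among the 43 lower genes, Cebpa, a leucine zipper factor of adipocytes, liver and myeloid cells, read 130 to 159 in Ezh2-null and 339 and 357 in Eed-null cells (-1.10, SE 0.11, adjusted p = 3.19e-09). The Ezh2-null arrays lay above wild type (87.8 to 128.2), and the Eed-null arrays further above. Fabp3, a fatty acid binding protein of heart and muscle, read 1347 to 1795 against 3960 and 4084 (-1.31, adjusted p = 0.000468), with wild type at 666 to 770. Hspa1b, an inducible heat shock protein, read 453 to 798 against 1167 and 1330 (-1.05, adjusted p = 0.000282), with wild type at 325 to 424. Thus for Cebpa, Fabp3 and Hspa1b the order of the arrays was wild type, Ezh2-null and then Eed-null, without overlap.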
